A study of Mus musculus with 12 samples.

Results

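The inflammasome and gasdermin genes described here are 10 mouse genes listed by role: the sensors Nlrp3, Nlrp10 and Aim2, the adaptor Pycard, the caspases Casp1 and Casp4, the pore-forming gasdermins Gsdma, Gsdmc and Gsdmd, and the cytokine Il18. Of these, 9 were measured among the 28529 genes analysed, and Gsdmc was not analysed here. The low-count filter kept 8 of the 9 for testing, among 21203 genes tested, and left out Nlrp3.

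RNA-seq was run on cornea cells of wild-type (WT) mice: untreated animals (control), a model of dry eye disease (DED), and the same model after exosomes derived from stem cells were given either as an eye drop or intravenously. Exosomes are small membrane vesicles that cells release. The labels name 3 samples per group, but the values of the third eye drop sample were the mean of the other 2, so that column was left out and 11 libraries remained (3 control, 3 DED, 2 eye drop and 3 intravenous). The labels give no strain, age or sex, do not say how dry eye was induced, and name no vehicle-only group. Exosomes and their vehicle or handling cannot be told apart. The labels do not say whether the samples came from separate animals, so the p-values measure the spread between these samples, which may be technical.

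Inflammasomes are protein complexes that form in the cytosol when a sensor such as NLRP3 or AIM2 detects damage or microbial material. The sensor recruits the adaptor ASC, the product of Pycard, which gathers and activates caspase-1, the product of Casp1. Caspase-1 cuts the precursors of interleukin-1 beta and interleukin-18 into their active forms and cuts gasdermin D, whose freed end forms pores through which the cytokines leave and by which the cell can die (pyroptosis). At the ocular surface, inflammasome activity has been linked to dry eye, and interleukin-18 is made by epithelial cells as well as by myeloid cells. These steps act on proteins, which an RNA measurement does not see.

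The libraries held 8956553 to 14263045 counts, with the 3 intravenous libraries lowest (at most 9501661). Values are counts scaled by median-of-ratios size factors (normalized counts), fold changes are on the log2(normalized count + 1) scale, which understates the change of genes with few counts, and p-values come from limma adjusted by Benjamini-Hochberg over all genes tested. Scaling by library totals lowered the median log2 fold change of all genes to -0.31 in intravenous against control and -0.25 in intravenous against DED, and leaving the counts unscaled lowered these medians to -0.55 and -0.58. The split of calls moved with it: in intravenous against control, 1413 of 2405 calls were higher with size factors, 649 of 4579 with library totals, 1835 of 2541 with the 75th percentile and 269 of 6517 unscaled. In intravenous against DED, 204 of 308 calls were higher with size factors, 131 of 586 with library totals and 90 of 3739 unscaled. In DED against control, 156 of 265 were higher with size factors, 137 of 333 with library totals, 198 of 286 with the 75th percentile and 132 of 178 unscaled. Corneal epithelium markers such as Krt12 summed to 697132.3 to 1081714.6 normalized counts in the 11 libraries, as the labelled tissue has them, while the highest library was DED 3 for retina markers, eye drop 2 for lens markers and intravenous 1 for muscle markers (called the marker-rich libraries).

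The moderated F test over the 4 groups called 4 of the 8 tested inflammasome and gasdermin genes, Pycard (adjusted p = 0.0176), Casp1 (0.0198), Il18 (0.0241) and Gsdma (0.049), beside 4.51% of all genes tested. The genes were chosen with earlier results of these data known, so this share is not read as an excess. The 4 called genes had unlike patterns over the groups. Pycard and Il18 were lowest in the controls and highest in the intravenous group. Gsdma was highest in the DED model. Casp1 was lowest in the DED model and highest in both treated groups. In bulk RNA, fewer cells of a type and less RNA per cell cannot be told apart. In the untreated cornea and in every other group, mean levels per kilobase of transcript placed Il18 and Pycard far above the rest, with Gsdmd next and Casp1, Gsdma, Casp4, Aim2, Nlrp10 and Nlrp3 lower still.

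**Figure D1:**
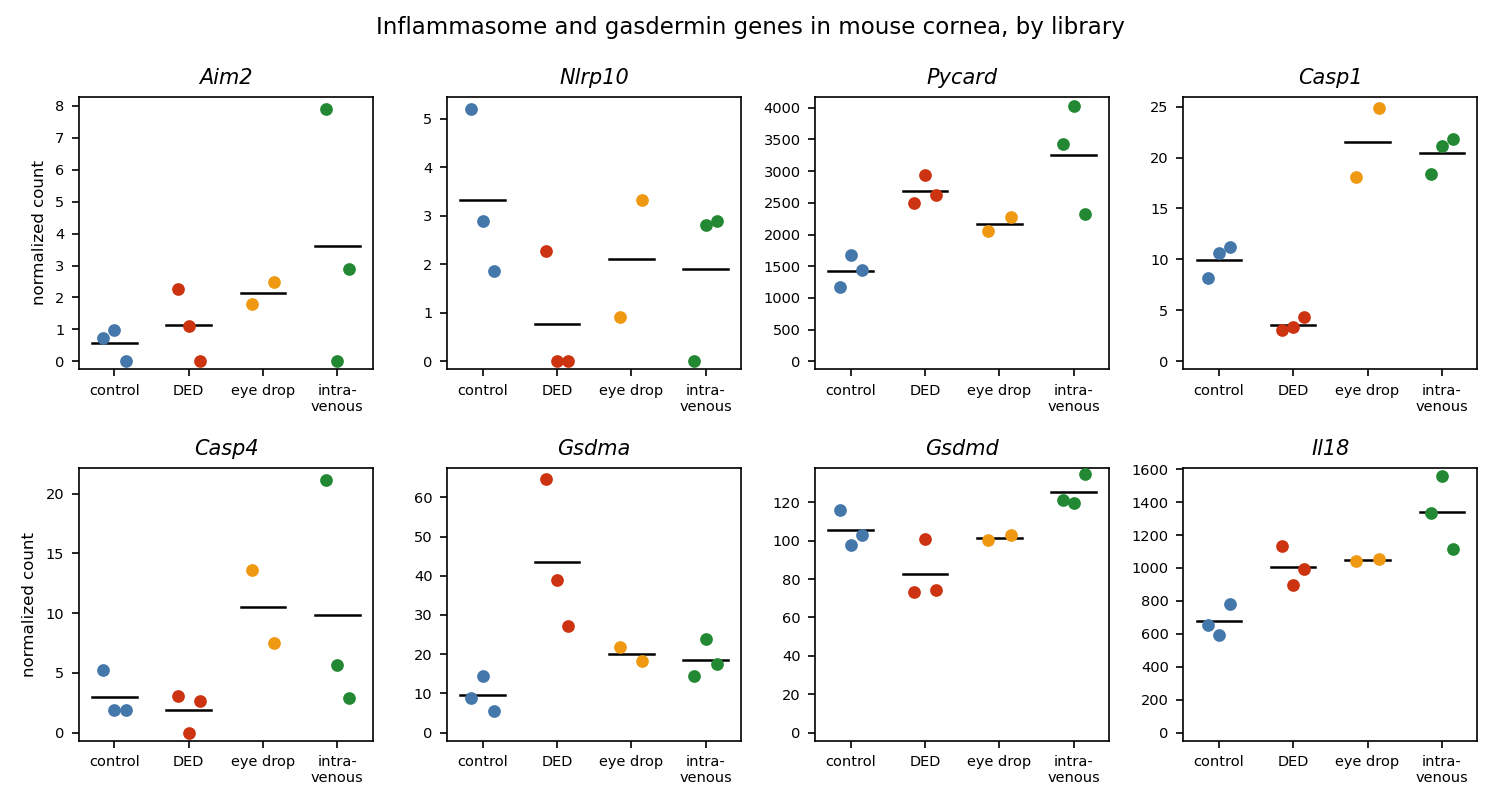
Normalized count (linear axis from 0) of the 8 tested genes in each of the 11 libraries, by group. Points are libraries and bars are group means. Casp1 is at 3.04 to 4.38 in the DED model and at 18.1 to 24.9 in the eye drop group, and Gsdma is at 27.2 to 64.6 in the DED model and at 5.62 to 14.5 in the controls.

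Per kilobase of the longest protein-coding transcript, the mean level over the 11 libraries was 1146.7 normalized counts for Il18, 633.2 for Pycard and 58.0 for Gsdmd. The next genes were Casp1 (8.81) and Gsdma (8.52), whose libraries overlapped, and then Casp4 (4.14), Aim2 (0.647), Nlrp10 (0.448) and Nlrp3 (0.0516). The order of Il18 and Pycard rests on the single annotated Pycard transcript, which has 3800 bases against 885 for Il18; per gene, the mean normalized count was higher for Pycard (2406.3) than for Il18 (1014.8).

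The 3 sensors were close to undetected. Nlrp3, the sensor most studied in sterile inflammation, had 2 counts in the 11 libraries together, 1 in control 2 and 1 in intravenous 1. It was at or near 0 in each group, so no group difference in Nlrp3 was detectable at this depth. A count of 0 allows up to 3 counts, which was 2.23 to 4.35 normalized counts per library and covers counting error only.

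Aim2, a sensor of double-stranded DNA in the cytosol, had raw counts of 1, 1 and 0 in the controls, 3, 1 and 0 in the DED libraries, 2 and 3 with the eye drop, and 6, 0 and 2 with the intravenous route. The intravenous libraries ran from none to the highest of all, so that group overlapped every other. Summed over its libraries, the intravenous group was 6.39 times the control (8 counts against 2), with a counting interval of 1.28 to 61.8 (95%, exact) that leaves out the spread between libraries. The limma adjusted p was 0.355, and 0.642 for any difference between the groups.

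Nlrp10, an NLR protein without the leucine-rich repeats of its relatives, had raw counts of 7, 3 and 2 in the controls, 3, 0 and 0 in the DED libraries, 1 and 4 with the eye drop, and 0, 2 and 2 intravenously. All 3 controls held counts and 2 of the 3 DED libraries held none, but DED 1 lay inside the control range. The DED total was 0.257 of the control (3 counts against 12, counting interval 0.0465 to 0.952), and the log2 fold change of -1.47 (SE 0.72) had an adjusted p of 0.306.

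Pycard encodes ASC, the adaptor that joins sensors to caspase-1. Its normalized counts were 1178.5, 1680.2 and 1437.6 in controls 1 to 3, 2498.3, 2932.0 and 2630.3 in the DED model, 2050.1 and 2277.4 with the eye drop, and 3426.5, 4033.8 and 2324.5 intravenously. Every DED and every treated library lay above every control. The intravenous libraries spread most widely, with intravenous 3 below all 3 DED libraries.

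Pycard rose in the DED model to 2686.9 ± 222.4 (SD, n = 3) from 1432.1 ± 250.9 (n = 3), with log2 fold change 0.92, SE 0.20 and adjusted p = 0.0341. The call was lost without control 1 (adjusted p = 0.224), control 3 (0.115), DED 1 (0.0553), DED 2 (0.123), DED 3 (0.134), eye drop 1 (0.0519) or eye drop 2 (0.0529), with log2 fold changes of 0.78 to 0.97 in these fits, and without the 3 marker-rich libraries (0.93, adjusted p = 0.263). With the intravenous route Pycard stood at 3261.6 ± 866.5 (n = 3) and was higher than in control with log2 fold change 1.17, SE 0.20 and adjusted p = 0.00462, a call kept in 21 of 23 alternatives, among them all 11 that left out 1 library. It was lost unscaled (0.50, adjusted p = 0.109) and without the marker-rich libraries (1.11, 0.0691). With the eye drop it stood at 2163.8 ± 160.8 (n = 2), between control and DED, and passed the test against neither (log2 fold change 0.61, adjusted p = 0.346 against control and -0.31, 0.83 against DED).

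The Pycard values are uncertain for an annotation reason. In GENCODE M21 (GRCm38), the gene Gm45205 lies on the opposite strand and shares 485 exon bases with Pycard, and the labels do not say that reads were counted by strand. Gm45205 had 17838 counts over the 11 libraries beside 25879 for Pycard, and the log2 levels of both genes had a Pearson correlation of 0.99 over these libraries, which share all their technical features. Gm45205 was itself higher in DED against control (log2 fold change 1.00, SE 0.20, adjusted p = 0.0216) and in intravenous against control (1.30, SE 0.20, 0.00253). Without strand, reads on the 485 shared bases cannot be assigned to either gene. The rest of the 3800-base Pycard transcript is not shared with Gm45205. No other analysed gene of the 9 shared exon bases with another gene in that annotation.

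Casp1 encodes caspase-1, the protease that inflammasomes activate. It was counted at low depth, with raw counts of 11, 11 and 12 in the controls, 4, 3 and 5 in the DED model, 20 and 30 with the eye drop, and 14, 15 and 15 intravenously. After scaling these were 8.17, 10.6 and 11.2, then 3.04, 3.33 and 4.38, then 18.1 and 24.9, then 18.4, 21.1 and 21.8. The DED libraries lay below every other library, the controls lay in between, and both treated groups lay above every control.

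Casp1 was higher with the intravenous route than in the DED model (20.4 ± 1.76, n = 3, against 3.58 ± 0.705, n = 3), with log2 fold change 2.23, SE 0.43, 95% interval 1.33 to 3.14 and adjusted p = 0.016. With the eye drop it stood at 21.5 ± 4.82 (n = 2), and the log2 fold change against DED was as large, 2.29 (SE 0.48, interval 1.27 to 3.30), with an adjusted p of 0.084. The 2 treated groups differed by a log2 fold change of -0.06 (interval -1.07 to 0.96, intravenous against eye drop), an interval too wide to call them alike. Both comparisons use the same 3 DED libraries, so they are not independent. The DED mean was below the control mean of 10 ± 1.63 (n = 3), at a log2 fold change of -1.26, SE 0.43 and adjusted p = 0.151, which did not pass. Against control, the log2 fold change was 1.02 (SE 0.48, adjusted p = 0.466) with the eye drop. Intravenously it was 0.97 (SE 0.43, adjusted p = 0.148), so neither treated group passed against control.

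The intravenous call for Casp1 was lost without DED 1 (log2 fold change 2.14, adjusted p = 0.0747), without the 3 marker-rich libraries (2.42, 0.154) and in a fit of those 2 groups alone (2.23, 0.11). The eye drop difference passed the threshold in only 2 of the alternative settings. These were limma without its variance trend and robust estimation (adjusted p = 0.0176) and limma with the third eye drop column included (0.00647). That column was the mean of the other 2.

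Casp4, which in the mouse encodes caspase-11, a caspase that senses bacterial lipopolysaccharide inside the cell and cuts gasdermin D, had raw counts of 7, 2 and 2 in the controls, 4, 0 and 3 in the DED model, 15 and 9 with the eye drop, and 16, 4 and 2 intravenously. The eye drop libraries, at 13.6 and 7.46 normalized counts, lay above every control and DED library. Intravenous 1 was the highest of all at 21.1, while intravenous 3, at 2.9, lay inside the DED range of 0 to 3.04. Casp4 passed no test: its log2 fold change against DED was 2.18 (SE 0.83, adjusted p = 0.608) with the eye drop and 1.76 (SE 0.74, adjusted p = 0.263) intravenously.

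Casp1 and Casp4 lie next to each other on chromosome 9, followed by Casp12, in the RefSeq annotation of GRCm38.p6. Casp12 had 6.37 ± 3.38 normalized counts in the controls (n = 3), 10.5 ± 7.39 in the DED model (n = 3), 25.1 ± 0.93 with the eye drop (n = 2) and 19.6 ± 8.76 intravenously (n = 3). Its means too were higher in the treated groups than in DED, without passing the test (log2 fold change 1.36, adjusted p = 0.691 for the eye drop and 0.93, 0.438 intravenously). Over the 11 libraries, the Pearson correlation of the log2 levels of Casp1 was 0.636 with Casp4 and 0.725 with Gsdmd.

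The promoters of both caspase genes are shown because their treated means lay above the DED mean. RefSeq (GRCm38.p6) gives them, from 250 bases before to 50 bases after the start, at chr9:5298267-5298566 for Casp1 and chr9:5308599-5308898 for Casp4, both on the plus strand and written 5′ to 3′. Capitals mark an E-box match, CACGTG, in Casp1 at positions -137 to -132 from the start. In Casp4 they mark matches to the kappaB motif (the site of NF-kappaB), 2 overlapping ones on the plus strand between -93 and -83 and 1 on the minus strand at -39 to -30.
Casp1: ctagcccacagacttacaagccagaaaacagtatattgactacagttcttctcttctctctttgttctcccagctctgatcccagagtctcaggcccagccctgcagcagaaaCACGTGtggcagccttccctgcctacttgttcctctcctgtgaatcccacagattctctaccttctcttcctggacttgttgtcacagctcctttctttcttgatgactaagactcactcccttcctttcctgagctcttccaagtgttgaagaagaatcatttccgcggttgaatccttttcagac
Casp4: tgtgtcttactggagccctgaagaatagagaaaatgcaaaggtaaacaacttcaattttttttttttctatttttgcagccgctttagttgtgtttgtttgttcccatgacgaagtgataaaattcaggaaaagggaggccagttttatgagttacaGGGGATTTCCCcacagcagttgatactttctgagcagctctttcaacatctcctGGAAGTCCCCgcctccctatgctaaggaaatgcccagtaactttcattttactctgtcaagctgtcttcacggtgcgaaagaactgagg
Both strands were searched for the interferon-stimulated response element (ISRE, GAAANNGAAA), the gamma-activated site (GAS, TTCNNNGAA), kappaB and, added after the sequences had been read, the E-box. Of 32851 RefSeq promoter windows of this length, 3.44% held the ISRE letters, 8.30% the GAS letters, 8.46% the kappaB motif and 7.15% the E-box. RefSeq windows were matched for 6 of the 10 genes, and no window of the 6 held the ISRE or GAS letters. A match is a description of letters and says nothing of binding.

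Gsdma encodes gasdermin A, a gasdermin of stratified epithelia such as the epidermis. Its normalized counts were 8.91, 14.5 and 5.62 in the controls, 64.6, 38.8 and 27.2 in the DED model, 21.7 and 18.2 with the eye drop, and 14.5, 23.9 and 17.4 intravenously. The DED libraries lay above all 8 others, from raw counts of 31 to 85. The treated libraries lay below them, with intravenous 1 at the level of control 2.

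Gsdma rose in the DED model (43.5 ± 19.2, n = 3, against 9.67 ± 4.49, n = 3) with log2 fold change 2.06, SE 0.43, 95% interval 1.14 to 2.98 and adjusted p = 0.0278. The call was lost without control 1 (adjusted p = 0.134), control 3 (0.122), DED 1 (0.0902) or DED 2 (0.0852), with log2 fold changes of 1.73 to 2.10, and without the 3 marker-rich libraries (2.35, adjusted p = 0.0756). Over all fits that left out 1 library, the log2 fold change was 1.73 to 2.37. In the treated groups the log2 fold change against DED was -1.0 (SE 0.49, adjusted p = 0.717) with the eye drop and -1.12 (SE 0.43, adjusted p = 0.215) intravenously, neither past the threshold. The mouse genome holds the close paralogs Gsdma2 and Gsdma3, not analysed here, so reads could be split between these genes and the Gsdma counts are uncertain.

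Eyelid epidermis markers and hair follicle and sebaceous gland markers bear on Gsdma, since skin expresses it. The 9 eyelid epidermis markers summed to 4774.0 to 6913.0 normalized counts in the DED model and 6813.2 to 9863.9 in the controls, with Krt2 and Lce1b at 0 in both groups and Flg at 0 in the DED model, and 1 of 6 tested was higher in DED. The median log2 fold change of those 6 was 0.51, although the median sum was lower in DED (4862.0 against 6818.5). A sum follows the most abundant markers. The 9 hair follicle and sebaceous gland markers summed to 54.0 to 71.0 in the DED model and 44.6 to 54.1 in the controls, with Krt71, Krt73 and Awat1 at 0 in the DED model. The part of these cells in the Gsdma result was not tested.

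Gsdmd encodes gasdermin D, the pore-forming substrate of caspase-1 and caspase-11. It had 115.8, 97.6 and 103.0 normalized counts in the controls, 73.0, 100.9 and 74.5 in the DED model, 100.3 and 102.8 with the eye drop, and 121.2, 119.5 and 134.9 intravenously. DED 1 and DED 3 were the lowest libraries, DED 2 lay among the controls and the 3 intravenous libraries were the highest. The intravenous mean of 125.2 ± 8.47 (n = 3) exceeded the DED mean of 82.8 ± 15.7 (n = 3) with log2 fold change 0.61, SE 0.21 and adjusted p = 0.17, which missed the threshold. The DED mean was below the control mean of 105.5 ± 9.38 (n = 3), also without passing (log2 fold change -0.36, SE 0.21, adjusted p = 0.39).

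Il18 encodes the precursor of interleukin-18. Its normalized counts were 654.2, 591.3 and 783.9 in the controls, 1133.2, 896.0 and 996.2 in the DED model, 1041.8 and 1054.1 with the eye drop, and 1337.1, 1560.6 and 1114.4 intravenously. The controls lay below the 8 other libraries, the eye drop libraries lay within the DED range, and intravenous 3 overlapped the DED libraries.

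Il18 was higher with the intravenous route than in control (1337.4 ± 223.1, n = 3, against 676.5 ± 98.2, n = 3) with log2 fold change 0.98, SE 0.18 and adjusted p = 0.00493. The call was kept in 21 of 23 alternatives, among them all 11 that left out 1 library, and lost unscaled (0.31, adjusted p = 0.369) and without the marker-rich libraries (0.97, 0.0754). In the DED model it stood at 1008.5 ± 119.0 (n = 3), with 0.58 on the log2 scale against control (SE 0.18, adjusted p = 0.112), and with the eye drop at 1047.9 ± 8.75 (n = 2), with 0.64 against control (SE 0.20, adjusted p = 0.255). Neither passed. Against DED, the log2 fold change was 0.06 (interval -0.35 to 0.48) with the eye drop and 0.40 (interval 0.03 to 0.77, adjusted p = 0.283) intravenously.

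Transcript length moved with the group over all genes. The third of genes with the shortest transcripts, which holds Il18, Casp1 and Casp4, had a median log2 fold change of 0.26 in intravenous against control, and the third with the longest, which holds Pycard and Nlrp10, had -0.25. In DED against control these medians were 0.17 and -0.13. The place of Pycard rests on its annotated transcript of 3800 bases. The part of length in the Il18, Casp1 and Pycard results was not tested.

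Pycard and Il18, which had a Pearson correlation of 0.856 over the 11 libraries, are shown with their RefSeq promoters because both were higher intravenously than in control. The windows are chr7:127993818-127994117 on the minus strand for Pycard and chr9:50554450-50554749 on the plus strand for Il18 (GRCm38.p6, 5′ to 3′), and no searched motif was found in either, so neither holds capitals.
Pycard: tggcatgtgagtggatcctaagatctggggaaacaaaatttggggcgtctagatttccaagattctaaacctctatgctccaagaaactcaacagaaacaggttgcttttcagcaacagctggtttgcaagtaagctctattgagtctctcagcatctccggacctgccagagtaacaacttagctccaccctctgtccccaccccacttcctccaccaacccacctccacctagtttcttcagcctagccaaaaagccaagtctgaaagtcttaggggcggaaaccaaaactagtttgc
Il18: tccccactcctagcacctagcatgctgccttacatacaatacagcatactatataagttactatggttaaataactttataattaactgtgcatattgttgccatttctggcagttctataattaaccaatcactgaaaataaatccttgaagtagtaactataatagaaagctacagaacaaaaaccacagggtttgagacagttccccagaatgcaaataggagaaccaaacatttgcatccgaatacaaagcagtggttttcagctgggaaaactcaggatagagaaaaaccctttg
The letters show that the kappaB, ISRE, GAS and E-box motifs are not in these windows and bear on no site outside them.

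The shares by comparison carry the same limit, since the genes were chosen with earlier results known. DED against control called 2 of the 8 tested genes (Pycard and Gsdma, both higher), beside 1.25% of all genes. The groups of 4 of the 8 did not overlap, beside 25.9% of all genes. The median log2 fold change of the 8 was -0.01, beside 0.03 over all genes. The eye drop against DED called none of the 8, beside 0.193% of all genes. An unadjusted limma p under 0.05 was found for 2 of the 8, beside 1495 of the 21203 genes tested. Limma without trend and robust estimation called 1 (Casp1). Groups did not overlap for 4 of the 8 (27.5% of all genes), and the median was 0.51, beside -0.03.

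Intravenous against DED called 1 of 8 (Casp1, higher), beside 1.45% of all genes, with 3 of 8 without overlap, beside 17.0%. The median was 0.67, beside -0.04 over all genes. Intravenous against control called 2 of 8 (Pycard and Il18, both higher), beside 11.3% of all genes, with 4 of 8 without overlap, beside 28.3%. The median was 0.97, beside -0.01. This comparison called many genes, and 2 of 8 is not read as a property of these genes as a group.

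Eye drop against control called none of 8, beside 0.00472% of all genes (1 gene). An unadjusted limma p under 0.05 was found for 4 of the 8, beside 2249 of the 21203 genes tested. Groups did not overlap for 6 of the 8, beside 35.0% of all genes. These 6 were Pycard, Il18, Casp1, Casp4, Gsdma and Aim2, all higher with the eye drop, and the median of the 8 was 0.83, beside 0.01. Intravenous against eye drop called none of 8, beside 0% of all genes, with 3 of 8 without overlap, beside 25.1%. Of the 8, 1 (Pycard) had an unadjusted limma p under 0.05, beside 1953 of the 21203 genes tested. Limma on library totals, on the 75th percentile scale and with voom likewise called none of the 8 in these last 2 comparisons. An effect past the threshold by 1 route and not by the other is not shown to differ between the routes.

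**Figure D2:**
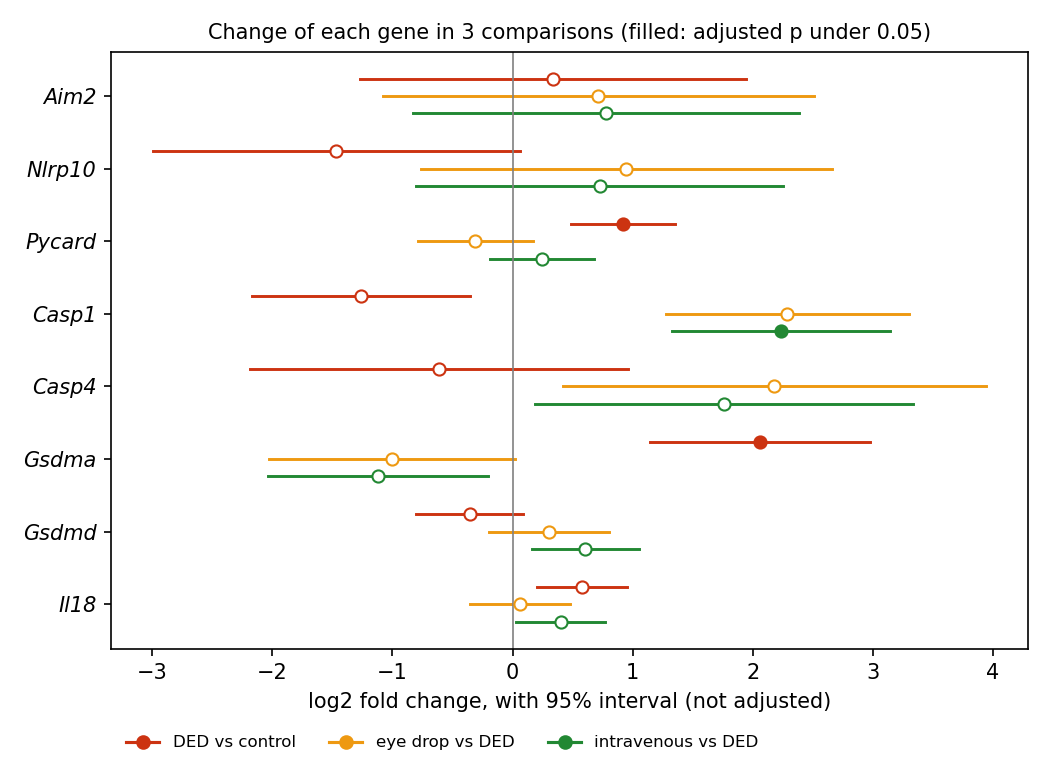
Log2 fold change (x axis) of the 8 tested genes in DED against control, eye drop against DED and intravenous against DED, with 95% intervals not adjusted for the number of genes. Filled points had an adjusted p under 0.05: Pycard (0.92) and Gsdma (2.06) in DED against control, and Casp1 (2.23) in intravenous against DED.

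Caspase-1, caspase-11, AIM2 and NLRP3 are well known from myeloid cells, so the markers of such cells are given beside these genes. The 15 macrophage and dendritic cell markers, none at 0 in any group, had summed normalized counts between 1035.8 and 1163.6 for the controls, 1310.8 and 1682.2 for DED, 1458.9 and 1869.4 for the eye drop, and 1424.3 and 1758.6 for the intravenous libraries. The controls lay below the other groups, whereas the DED and treated libraries overlapped, and none of the 15 was called in DED against control, eye drop against DED or intravenous against DED, while 1 was higher in intravenous against control, where their median log2 fold change was 0.61. The DED libraries had the lowest Casp1 and the treated libraries the highest, at overlapping sums of these markers. The part of these cells in the Casp1 and Casp4 results was not tested. The 7 neutrophil markers had sums between 15.6 and 46.4 for the controls, 83.2 and 527.8 for DED, 48.8 and 57.2 for the eye drop, and 43.5 and 206.8 for the intravenous libraries, and Ly6g, which defines neutrophils, was at 0 in the first 3 of these groups. The 9 T and NK cell markers summed to at most 9.65 in any library.

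**Figure D3:**
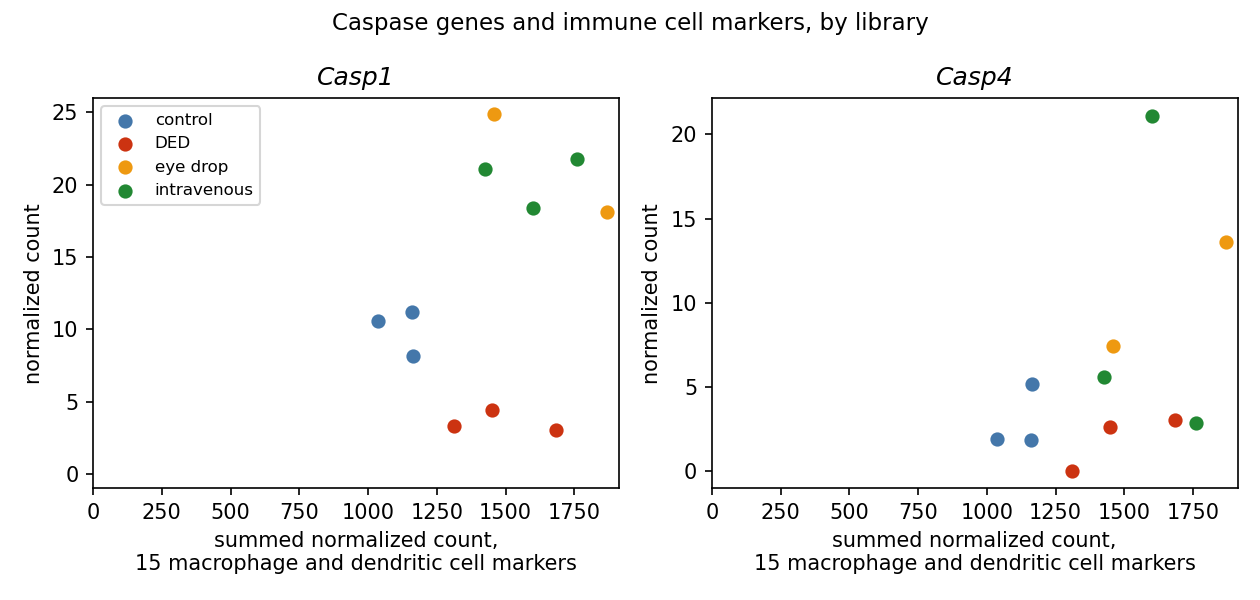
Normalized count of Casp1 (left) and Casp4 (right) against the summed normalized count of 15 macrophage and dendritic cell markers in each of the 11 libraries, coloured by group. At marker sums of 1310.8 to 1682.2 the DED libraries have Casp1 at 3.04 to 4.38, and at 1424.3 to 1869.4 the treated libraries have 18.1 to 24.9.

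Conjunctiva markers had their highest sums in the intravenous group. They summed to 103968.8 to 171256.4 normalized counts there, above the 71498.8 to 90099.3 of the DED model and the 72861.0 to 83892.2 of the controls. The eye drop sums, 88391.7 to 100145.2, overlapped the DED range and reached close to intravenous 1. Of 6 tested, 4 were higher intravenously against DED (median log2 fold change 0.97) and 4 against control (0.85). None was called in intravenous against eye drop (0.5). The goblet cell mucin Muc5ac was at 0 in the DED and eye drop groups. Their part in the intravenous results for Casp1, Pycard and Il18 was not tested. Keratocyte markers summed to 4966.9 to 9895.7 in the DED model and 3511.0 to 5149.9 in the controls, and their part in the DED results for Pycard and Gsdma was not tested.

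With predicted genes left out, tested genes with a mean normalized count of at least 10 were compared with each called gene. The genes whose log2 levels followed it most closely over the 11 libraries are given by Pearson correlation, as a description. For Casp1 they were Gbp2 (0.958), Mir6381 (0.957), Phyh (0.954) and Fam76a (0.945). For Gsdma they were Pla2g2f (0.942), Pigz (0.931), Xpnpep1 (0.916) and Tmem45a (0.907). For Pycard they were Ndufb6 (0.984), Atp6v0e (0.977), Srp9 (0.977) and Elof1 (0.975), and for Il18 Eapp (0.974), Rbis (0.973), Rps6-ps4 (0.970) and Atp6v1g1 (0.969). The predicted gene Gm45205, left out here, stood at 0.99 with Pycard. All correlations share the libraries and their depth.

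The rest of the pathway was read from 6 lists by role, 76 genes listed and 64 tested. These lists too were chosen with earlier results of these data known, so their shares called are a description. In DED against control, 2 of 10 cytokines, receptors and decoys were higher and 1 of 12 activators and inhibitors was lower, while none of 13 other sensors, 2 other gasdermin and membrane rupture genes, 8 other caspases and 19 priming genes was called, beside 1.25% of all genes. Both higher genes belonged to the interleukin-1 family: Il1a, an alarmin cytokine, rose from 390.4 ± 50.4 to 786.7 ± 80.3 normalized counts (n = 3 each, log2 fold change 1.01, SE 0.20, adjusted p = 0.0196), and Il1rn, the antagonist of its receptor, from 246.6 ± 35.5 to 482.0 ± 144.4 (0.93, SE 0.22, 0.0431). When 1 library was left out at a time, the Il1a call was kept in 6 of 11 fits and the Il1rn call in 3 of 11. Unscaled, both calls were lost, and library totals lost the Il1rn call too. Il1b, the other main cytokine substrate of caspase-1, had 8.48 ± 2.77 in the controls and 8.03 ± 2.55 in the DED model (n = 3 each), with -0.07 on the log2 scale (SE 0.60, adjusted p = 0.968).

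The lower gene was Gbp2, a guanylate-binding protein that is induced by interferon and helps expose bacteria to caspase-11 and AIM2. Its group means were 538.2 ± 52.4 (control, n = 3), 300.3 ± 29.3 (DED, n = 3), 719.5 ± 46.4 (eye drop, n = 2) and 898.0 ± 83.1 (intravenous, n = 3), without overlap between any of the groups. It fell in DED against control (log2 fold change -0.84, SE 0.16, adjusted p = 0.0168) and rose with the eye drop (1.26, SE 0.18, 0.00566) and intravenously (1.58, SE 0.16, 0.000136) against DED. The eye drop call was lost without eye drop 1 or eye drop 2. The call in DED against control was lost without control 3, DED 2 or DED 3, and unscaled. Without the 3 marker-rich libraries both calls were lost (Gbp2 adjusted p = 0.93 for the eye drop against DED and 0.273 for DED against control), as they were in limma without trend and robust estimation, and none of the 64 was called in either comparison under either setting. The order of the Gbp2 groups, DED below control below eye drop and intravenous, was that of the Casp1 libraries too, apart from the order of the treated groups.

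Intravenous against DED called 7 of the 64, all higher, beside 1.45% of all genes. These were the sensors Zbp1 (86.4 ± 16.4 to 1097.8 ± 634.9 normalized counts, n = 3 each, log2 fold change 3.50, adjusted p = 0.0294) and Nlrc5 (2.30, 0.0494), the transcription factor Irf1 (0.83, 0.0297), and 4 of the 12 activators and inhibitors, led by Gbp2, Gbp3 (2.08, 0.0197) and Gm12250 (3.58, 0.025), the gene of IRGB10. Zbp1 senses Z-form nucleic acids, Nlrc5 drives MHC class I genes, and Irf1, Gbp2, Gbp3, Zbp1 and IRGB10 are known as interferon-induced. Zbp1 ran from 546.7 to 1792.0 over the 3 intravenous libraries, all above its DED range of 72.1 to 104.3. The median log2 fold change of the 12 activators and inhibitors was 0.44, beside -0.04 over all genes, and no other caspase, gasdermin or cytokine gene was called. With 1 library left out at a time, Gbp2 was called in 11 of 11 fits, Gbp3 in 8, Gm12250 in 7, Zbp1 in 5, Irf1 in 4 and Nlrc5 in 2. Under other scalings, the Irf1 call was lost with library totals and unscaled, and the Nlrc5 call with library totals. Without the 3 marker-rich libraries, 2 of the 64 were called, Gbp2 and Gbp3.

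Intravenous against control called 12 higher and 1 lower of the 64, beside 11.3% of all genes, so the count is not read as a property of the pathway. Among those higher were Zbp1 (log2 fold change 2.41, adjusted p = 0.0353) and Nlrc5 (2.36, 0.0153) of the 13 other sensors, Ninj1 (0.80, 0.0385), which carries out membrane rupture, the decoy receptor Il1r2 (1.49, 0.00558), Irf1 (1.01, 0.00493) and Tnf (1.97, 0.0257) of the 19 priming genes, and 5 of the 12 activators and inhibitors, led by Gbp3 (2.24, 0.00581), Gbp2 (0.74, 0.0111) and Trim30a (1.68, 0.0195). The lower gene was the sensor Nlrp1b, with 29.6 ± 13.2 normalized counts in control and 7.95 ± 4.39 intravenously (n = 3 each, log2 fold change -1.79, SE 0.52, adjusted p = 0.036). With 1 library left out at a time, the named calls were kept in 4 (Zbp1), 5 (Ninj1), 7 (Nlrp1b and Tnf), 10 (Nlrc5, Gbp2 and Trim30a) or all 11 (Irf1, Il1r2 and Gbp3) of the fits. Under other scalings, the Gbp2 and Ninj1 calls were lost with library totals and unscaled, and the Irf1 call unscaled. The count was 4 of 64 without the 3 marker-rich libraries. The eye drop called 1 of the 64 against DED (Gbp2) and none against control in limma, and the routes called none against each other.

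**Figure D4:**
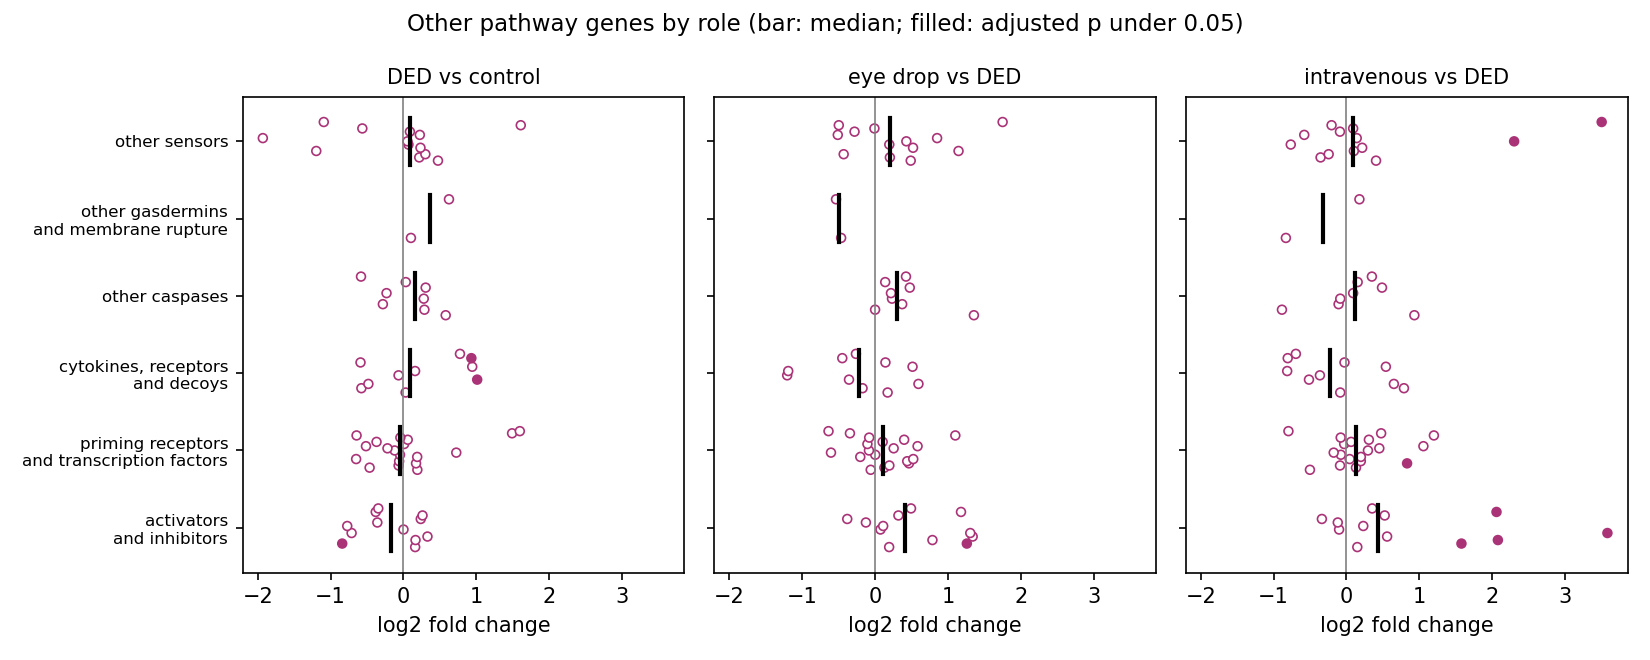
Log2 fold change (x axis) of the 64 other tested pathway genes by list, in DED against control, eye drop against DED and intravenous against DED. Points are genes, bars are list medians and filled points had an adjusted p under 0.05; 3, 1 and 7 are filled.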

How the data were processed

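RNA of mouse cornea cells was sequenced with a kit not stated to mark strand, and the submitters' processing notes give the build as mm9; the sources used here do not name the aligner, the counter or the annotation. The deposited values were log2 values: converted back to linear values less 1, 99.9748% of those in 11 columns were whole within 0.01, so they are log2 of a whole count plus 1, not scaled between samples. The third eye drop column equalled the mean of the other 2 on all 28548 lines (largest distance 5e-09) and was left out. Counts were recovered by rounding. The 10 lines that were not whole and 9 named by a date were left out (at most 0.049% of a library's counts), and 534 genes were at 0 throughout.

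Counts were divided by median-of-ratios size factors, and the filter kept the 21203 genes that reached 1 normalized count in 3 or more samples. Log2(normalized count + 1) was fitted with 4 group means in limma 3.58.1 (R 4.3.3), with trend and robust estimation, 7 residual degrees of freedom and 9.59 prior ones (median), two-sided, adjusted by Benjamini-Hochberg within each of 6 comparisons, threshold 0.05. The procedure was run on simulated counts with a common dispersion and known changes in the DED group only. That run does not show how it behaves at the spread of these data. A comparison of 2 or 3 samples a group rests on the spread shared by all groups.

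The members and lists were chosen with earlier results of these data known. All members were named; of each other list, up to 3 called genes per direction by smallest p, and the 4 genes most correlated with each member called in the test of any difference, predicted genes left out. One gene that this rule names is not reported here. Gbp2 group order, Casp12, Il1b and Gm45205 were added after their values were seen. Lengths (longest protein-coding transcript, 99.2% of genes) came from GENCODE M21 basic and overlaps from the full GENCODE M21 annotation (both GRCm38). No mm9 coordinate was used.

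The alternatives changed the scaling, filter, pseudocount, variance model, samples and replicate block, and left out each library. Total counts ranged from 8956553 to 14263045, so counting error is large for genes with few counts.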

Additional observations from a re-analysis of the deposited data

How the results depend on the processing

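Without trend and robust estimation, the counts of genes called among the 8 fell from 2 to 0 in DED against control and from 4 to 1 (Casp1) in the test of any difference, and rose from 0 to 1 (Casp1) in eye drop against DED, where including the third eye drop column also gave 1. Unscaled counts called 1 in DED against control, 2 in intravenous against DED (Casp1 and Gsdma) and 0 in intravenous against control; these fits leave the lower depth of the intravenous libraries in the values. Without the 3 marker-rich libraries (DED 3, eye drop 2 and intravenous 1), DED against control, intravenous against DED, intravenous against control and the test of any difference each called 0, with fewer samples. A fit of the 2 groups alone called 0 in intravenous against DED. Over the fits that left out 1 library, the counts ran from 0 to 3 in DED against control (3 without intravenous 3), 0 to 1 in intravenous against DED, eye drop against control and intravenous against eye drop, and 0 to 4 in the test of any difference (0 without control 3, 1 without control 1 or intravenous 1, and 2 without eye drop 2 or intravenous 2). Without intravenous 3, Il18 was called in eye drop against control (adjusted p = 0.0495, log2 fold change 0.64) and in DED against control (0.0255, 0.58), and Pycard in intravenous against eye drop (0.0271, 0.79). The cause of these moves was not tested.

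Results that changed sign were all uncalled. Unscaled, the log2 fold change was -0.38 for Pycard, -0.01 for Gsdmd and -0.22 for Il18 in intravenous against DED, -0.13 for Pycard, -0.33 for Aim2, -0.38 for Gsdmd and -0.35 for Il18 in intravenous against eye drop, and -0.41 for Gsdmd in intravenous against control. With library totals it was -0.018 for Aim2 in intravenous against eye drop and -0.093 for Gsdmd in intravenous against control, and with the 75th percentile 0.03 for Gsdmd in eye drop against control. Without the marker-rich libraries it was 1.01 for Nlrp10, -0.51 for Aim2 and 0.23 for Casp1 in intravenous against eye drop, and -0.42 for Aim2 in intravenous against DED. Leaving out 1 library gave, in intravenous against eye drop, -0.81 to 0.43 for Nlrp10 (above 0 without eye drop 2, at 0.37, and intravenous 1), -0.68 to 0.92 for Aim2 (below 0 without eye drop 1, at -0.10, intravenous 1, and intravenous 3, at -0.08), -0.28 to 0.17 for Casp1 (above 0 without eye drop 2 and intravenous 1, at 0.01), -1.13 to 0.13 for Casp4 (above 0 without intravenous 3) and -0.31 to 0.035 for Gsdma (above 0 without intravenous 1). In eye drop against control it gave -1.10 to 0.073 for Nlrp10 (above 0 without eye drop 1) and -0.10 to 0.014 for Gsdmd (above 0 without control 1). In DED against control it gave -0.052 to 0.80 for Aim2 (below 0 without DED 1) and -0.96 to 0.036 for Casp4 (above 0 without DED 2), and in eye drop against DED -0.018 to 0.15 for Il18 (below 0 without DED 2).

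Same-numbered libraries had correlations of deviations from group means from -0.15 to 0.241, and differently numbered ones from -0.287 to 0.273. Deviations from means of 2 or 3 libraries depend on each other, so these correlations cannot exclude pairing by replicate number. With the replicate block, 2 of the 8 genes were called in DED against control and 1 in intravenous against DED, as without it, while the test of any difference called 3, without Gsdma, in place of 4. Gsdma in intravenous against eye drop was at 0.086. Of the other pathway genes, the block lost the calls of Il1rn in DED against control and Nlrp1b in intravenous against control.

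Over all genes, the calls ran from 51 to 1223 in DED against control (265 in the fit reported), 4 to 81 in eye drop against DED (41), 66 to 1609 in intravenous against DED (308), 0 to 375 in eye drop against control (1), 250 to 4844 in intravenous against control (2405), 0 to 632 in intravenous against eye drop (0) and 210 to 3749 in the test of any difference (956) when 1 library was left out. Under the other alternatives they ran from 60 to 662, 0 to 115, 46 to 3739, 0 to 309, 188 to 6517, 0 to 1404 and 33 to 5137. For the other pathway genes, alternatives chosen after seeing the data called 0 to 9 in DED against control (3), 0 to 3 in eye drop against DED (1), 1 to 16 in intravenous against DED (7) and 2 to 26 in intravenous against control (13). Gbp2 in intravenous against DED was called in all 23, and Nlrc5 in 7. Depth limits Nlrp3, Aim2, Nlrp10 and Casp4, whose counts were at most 16 in a library.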
